A study of Mus musculus with 10 samples.

Results

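The small leucine-rich proteoglycans (SLRPs) are secreted matrix proteins that bind collagen fibrils, and 10 of the 32285 genes in the count table belong to the family as taken here. They are Dcn, Bgn, Aspn, Fmod, Lum, Kera, Prelp, Omd, Ogn and Epyc, taken by symbol and not by any measured value. Each symbol matched a single Ensembl identifier. The tissue was mouse Achilles tendon, from which total RNA was sequenced with RamDA-seq, a kit chemistry made for very low RNA amounts. The 3 genotypes were Mkx-CreER/flox (n = 3), which carries a tamoxifen-activated Cre recombinase allele of Mkx together with a floxed Mkx allele, Mkx-CreER/+ (n = 3), which carries the CreER allele without a floxed allele, and Mkx flox/+ (n = 4), which carries the floxed allele without CreER. Every mouse, controls included, received 20 mg/kg tamoxifen at 6 weeks of age, and tendons were taken 4 weeks later, at 10 weeks. Mkx encodes Mohawk, a homeobox factor of tendon cells. The cells in which CreER acts are given only through the name of the allele. The sources used here do not state if inserting CreER disables that copy of Mkx, and they name the floxed control both as flox/+ and, with no copy number, as Mkx-flox. Library numbers are those of the count table's columns.

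SLRPs share a curved core of leucine-rich repeats. Class I members (Dcn, Bgn, Aspn) and class II members (Fmod, Lum, Kera, Prelp, Omd) bind fibrils or matrix ligands, and decorin and biglycan carry chondroitin or dermatan sulfate chains, whereas keratan sulfate and sulfated tyrosines are typical of class II. Class III holds osteoglycin (Ogn) and epiphycan (Epyc). In tendon the family is known for setting the diameter and the lateral fusion of collagen fibrils, and decorin and fibromodulin are among its abundant members there.

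The libraries held 8680934 to 22656417 counts, so that 3 counts stood for 0.126 to 0.36 CPM (counts scaled to library size, with TMM factors), limits that cover counting error only. Mkx measured 26.1, 32.4 and 30.5 CPM in Mkx-CreER/flox libraries 1, 4 and 5, against 91.4, 93.8 and 93.5 CPM in Mkx-CreER/+ libraries 1, 2 and 4 and 187, 177, 121 and 153 CPM in Mkx flox/+ libraries 1 to 4. Every Mkx-CreER/flox library thus lay below every control library, as its label has it. These values do not check which control genotype is which. All 12 tendon cell markers were detected, at a summed 22450 to 28340 CPM in Mkx-CreER/flox, 36020 to 46600 CPM in Mkx-CreER/+ and 53280 to 114900 CPM in Mkx flox/+. These sums include the abundant Col1a1 and Col1a2 and are no measure of tendon cell number. Skeletal muscle RNA was present as well: 20 muscle genes took 7.52% to 11.8% of the counts in Mkx-CreER/flox, 3.16% to 8.27% in Mkx-CreER/+ and 1.66% to 5.21% in Mkx flox/+. Library Mkx-CreER/flox 1 stood apart, with the most muscle RNA (11.8% of counts), the most mitochondrial RNA (8.85%, against 1.92% to 5.32% in the other 9 libraries) and the highest score on the principal component of largest variance (84.6, against at most 36.9). In bulk tissue, fewer cells of a type and less RNA per cell cannot be told apart. Nothing in the labels says that each library is a separate mouse, so p-values measure the spread between these libraries, which may be partly technical.

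All but 1 of the 10 genes lie in 3 groups of neighbours (mm10, GENCODE vM21). On chromosome 10, Dcn (ENSMUSG00000019929, 97479609 to 97518143), Lum (ENSMUSG00000036446, 97565128 to 97572703), Kera (ENSMUSG00000019932, 97606879 to 97613692) and Epyc (ENSMUSG00000019936, 97644068 to 97682454) follow each other on the plus strand within 202.8 kb. On chromosome 13, Aspn (ENSMUSG00000021388, 49544443 to 49567565), Omd (ENSMUSG00000048368, 49582462 to 49592822) and Ogn (ENSMUSG00000021390, 49608046 to 49624501) share the plus strand of an 80.1 kb stretch. On chromosome 1, Prelp (ENSMUSG00000041577, 133910304 to 133921414, minus strand) and Fmod (ENSMUSG00000041559, 134037254 to 134048277, plus strand) are 115.8 kb apart. Bgn (ENSMUSG00000031375, 73483602 to 73495933, plus strand) is alone on chromosome X. The longest exact stretch that transcripts of any pair of members shared was 16 bases. Opposite-strand genes cover 9.68% of the exon bases of Prelp, 0.297% of those of Aspn and 40.7% of those of Epyc, and no source used here says how strand was treated in counting.

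RefSeq promoter windows (GRCm38.p6, 250 bases before to 50 after the start) were at hand for 8 of the 10 genes, all but Dcn and Lum. The 250 bases before the start are shown for fibromodulin and asporin, members that moved in opposite directions in the comparison with both controls. Capitals mark the E-box letters CANNTG, a motif bound by basic helix-loop-helix factors such as scleraxis.
Fmod, chr1:134037004-134037253, plus strand: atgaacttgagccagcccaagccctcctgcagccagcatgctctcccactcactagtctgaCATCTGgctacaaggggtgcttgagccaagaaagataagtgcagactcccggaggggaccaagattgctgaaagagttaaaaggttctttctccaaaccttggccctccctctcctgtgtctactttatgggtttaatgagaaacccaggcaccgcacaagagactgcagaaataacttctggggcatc
Aspn, chr13:49544193-49544442, plus strand: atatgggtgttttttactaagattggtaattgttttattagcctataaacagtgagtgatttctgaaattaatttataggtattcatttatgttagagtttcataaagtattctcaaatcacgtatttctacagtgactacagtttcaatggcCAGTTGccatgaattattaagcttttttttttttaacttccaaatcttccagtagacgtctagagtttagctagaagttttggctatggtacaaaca

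The bases before Fmod are 51.2% G or C, those before Aspn 30.0%. Counting the start as 0, the E-box of Fmod begins at -189 and the printed E-box of Aspn at -97, with another at 11 in the transcribed part of the window. Such a match is common, since 72.3% of the 32851 windows in the table hold CANNTG, and it is a description only. TATAAA, searched on both strands like the other motifs, began at -207 and -178 in Aspn and was not among the letters of the Fmod or Kera windows (13.6% of all windows hold it). CCAAT occurred in all 3 windows, at -229 in Aspn, at 34 in Fmod and at -163, -107 and -74 in Kera (37.4% of all windows). The Kera window lies inside the untranslated part of exon 1 as GENCODE draws it and is not printed.

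Per kilobase of exon, decorin and fibromodulin were the most abundant SLRP transcripts of the tendon and epiphycan was close to absent. In Mkx-CreER/flox the order of mean levels was Dcn (1592 CPM per kb), Fmod (792), Bgn (488.5), Ogn (478), Prelp (292), Omd (136), Aspn (127), Lum (121.5), Kera (45.2) and Epyc (0.0705). In Mkx-CreER/+ it was Dcn (2513), Fmod (1597), Bgn (581), Ogn (435), Prelp (409), Kera (147), Lum (131), Omd (98.7), Aspn (71) and Epyc (0.154). In Mkx flox/+ it was Dcn (3139), Fmod (3124), Bgn (911), Prelp (481), Ogn (348.5), Kera (227), Lum (129), Omd (86.4), Aspn (48.1) and Epyc (0.152). The ranges of neighbours in these orders overlapped in many places, less so in Mkx-CreER/+. There Fmod and Bgn, Bgn and Ogn, Prelp and Kera, Omd and Aspn, and Aspn and Epyc did not overlap. In Mkx-CreER/flox no overlap was seen between Dcn and Fmod, Lum and Kera, or Kera and Epyc, while in Mkx flox/+ Dcn and Fmod overlapped and Fmod stood clear of Bgn. Divided by the longest transcript instead of all exons, Bgn passed Fmod in Mkx-CreER/flox (1118 against 840 CPM per kb), because its longest transcript has 2666 bases and its exons together cover 6099.

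Set against the mean of both controls, Mkx-CreER/flox tendons differed in 3 of the 9 SLRPs that could be tested: keratocan and fibromodulin fell and asporin rose. Against Mkx-CreER/+ alone, 0 of the 9 passed. Kera fell to 24.8% and Fmod to 35.5% of the control level, and Aspn reached 2.17 times that level. The comparison weighs the 2 control genotypes equally and uses edgeR's quasi-likelihood test over 16017 genes with a Benjamini-Hochberg adjusted p under 0.05. Across all genes it called 4.65% (3.03% higher, 1.62% lower), against 1 of 9 SLRPs higher and 2 of 9 lower. The median log2 fold change was -0.57 over the 9 and 0.016 over all genes. DESeq2 called 5 of the 9 (9.48% of all genes), with Dcn and Bgn besides these 3, and limma voom 6 (18.8%), with Prelp as well. Epyc was too low to test, so the counts cover 9 of the 10 members.

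**Figure D1:**
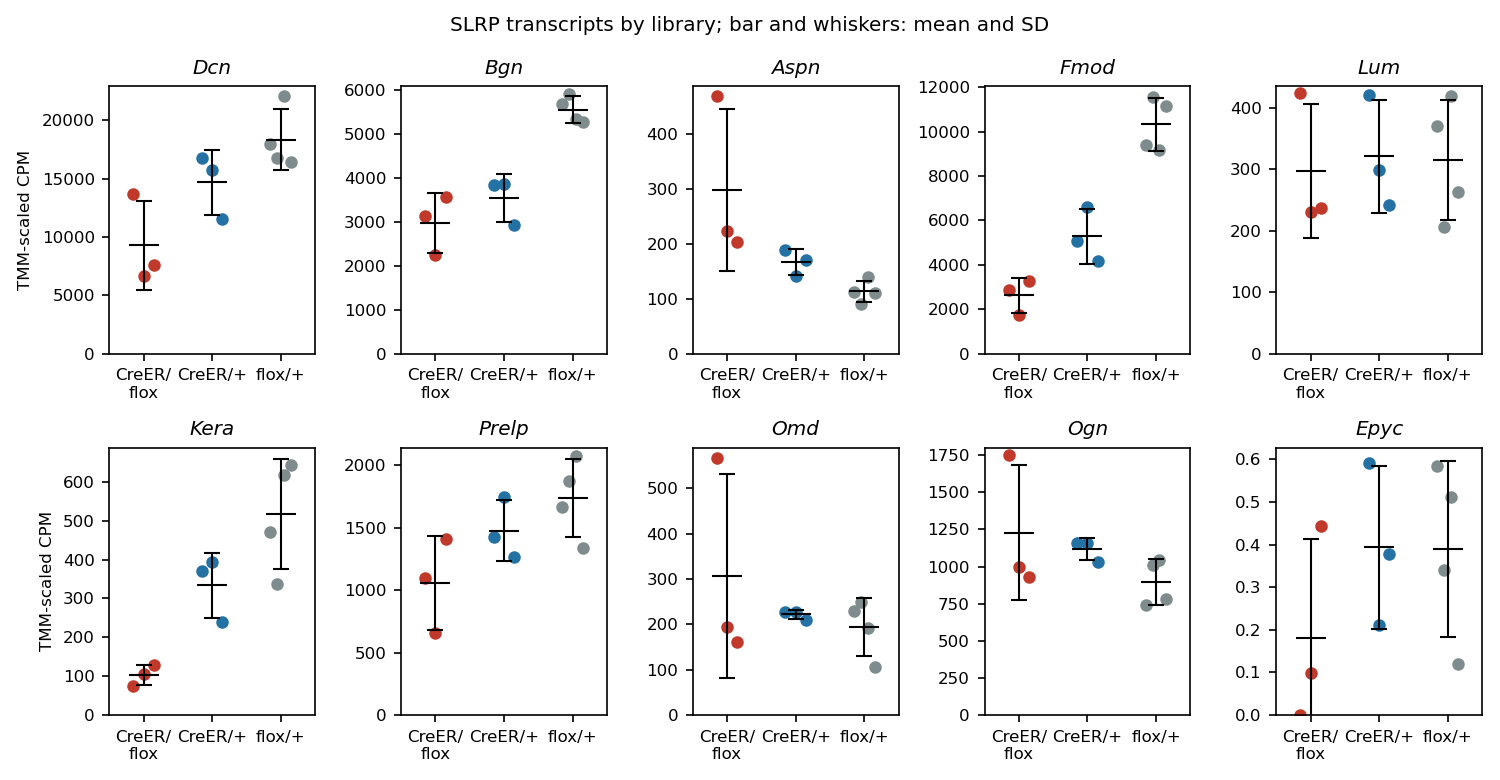
TMM-scaled CPM of each SLRP gene (vertical axis, linear, from 0) in every library of the 3 genotypes (horizontal axis), with points for libraries and a bar with whiskers for mean and SD; the lower whisker of Epyc is cut at 0. Kera and Fmod points of Mkx-CreER/flox lie below all 7 controls, Aspn points lie above them, and library Mkx-CreER/flox 1 is the separate high point in Aspn, Omd and Ogn.

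Class II held both genes that fell. Keratocan is a keratan sulfate proteoglycan best known from the cornea and also made in tendon. Kera measured 75.5, 105 and 129 CPM in Mkx-CreER/flox, against 371, 393 and 239 CPM in Mkx-CreER/+ and 471, 337, 618 and 643 CPM in Mkx flox/+. Every Mkx-CreER/flox value lay below every control value. The log2 fold change was -2.01 (SE 0.264, edgeR adjusted p = 0.00467), which ranked 5 by p among all genes tested. The call held under all 19 other settings, at -2.22 to -1.86, and stood at -1.86 (adjusted p = 0.0064) without library Mkx-CreER/flox 1.

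Fibromodulin binds type I collagen and takes part in fibril maturation and cross-linking. Fmod measured 2853, 1735 and 3271 CPM in Mkx-CreER/flox, 5070, 6601 and 4173 CPM in Mkx-CreER/+ and 9420, 11570, 9178 and 11140 CPM in Mkx flox/+. The 3 genotypes did not overlap, and Mkx-CreER/+ lay between the others. The log2 fold change of Fmod was -1.495, a fall (SE 0.27, edgeR adjusted p = 0.0167). The call held under 17 of 19 other settings and ended, for instance, without Mkx-CreER/flox 4, the library with the lowest Fmod (-1.27, adjusted p = 0.0593).

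The remaining class II genes did not pass. Lumican, which shares a collagen site with fibromodulin, showed wide overlap: Lum measured 424, 231 and 237 CPM in Mkx-CreER/flox, 422, 299.7 and 242 CPM in Mkx-CreER/+ and 371, 206, 419.8 and 264 CPM in Mkx flox/+ (log2 fold change -0.097, SE 0.262, edgeR adjusted p = 0.883). Prelp, which links collagen to heparan sulfate proteoglycans, measured 1094, 659 and 1414 CPM in Mkx-CreER/flox, 1426, 1745 and 1263 CPM in Mkx-CreER/+ and 1666, 1873, 2073 and 1342 CPM in Mkx flox/+ (-0.60, SE 0.248, adjusted p = 0.184). Its Mkx-CreER/flox values were mostly low, but library 5 lay among the controls, and Prelp stood at -0.36 (edgeR adjusted p = 0.51) without Mkx-CreER/flox 4. Osteomodulin, named for bone, gave 566, 194 and 160.1 CPM of Omd in Mkx-CreER/flox, 227, 228 and 211 CPM in Mkx-CreER/+ and 230, 249, 192.5 and 105 CPM in Mkx flox/+ (0.56, SE 0.354, adjusted p = 0.41). Only library Mkx-CreER/flox 1 was high in Omd, and without it the fold change was -0.25 (adjusted p = 0.702).

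Class I split in direction. Asporin, a class I member without a glycosaminoglycan chain that can bind TGF-beta and collagen, was the SLRP that rose. Aspn measured 469.6, 223 and 203 CPM in Mkx-CreER/flox, 189, 142 and 171 CPM in Mkx-CreER/+ and 113, 91.2, 139 and 109.7 CPM in Mkx flox/+. Every Mkx-CreER/flox value lay above every control, and the 3 genotypes did not overlap. The log2 fold change was 1.12 (SE 0.228, edgeR adjusted p = 0.0224). It leaned on library Mkx-CreER/flox 1: without it the change was 0.61 (adjusted p = 0.086). The call also ended without Mkx-CreER/+ 1 (1.15, adjusted p = 0.06), without Mkx-CreER/+ 2 (1.06, adjusted p = 0.0626) and in the fit with a muscle covariate (0.97, adjusted p = 0.0954).

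Decorin, the main dermatan sulfate SLRP of tendon and a regulator of fibril fusion, and its paralog biglycan did not pass this comparison. Dcn measured 13680, 6617 and 7580 CPM in Mkx-CreER/flox, 16750, 15730 and 11540 CPM in Mkx-CreER/+ and 17970, 16810, 22110 and 16420 CPM in Mkx flox/+ (log2 fold change -0.82, SE 0.284, edgeR adjusted p = 0.113). Libraries Mkx-CreER/flox 4 and 5 were below all 7 controls and library 1 was not, and without library 1 Dcn passed (-1.23, adjusted p = 0.0434). Bgn measured 3135, 2237 and 3566 CPM in Mkx-CreER/flox, 3844, 3865 and 2918 CPM in Mkx-CreER/+ and 5695, 5911, 5348 and 5268 CPM in Mkx flox/+ (-0.57, SE 0.222, adjusted p = 0.157). Its Mkx-CreER/flox values overlapped Mkx-CreER/+ and stood clear of Mkx flox/+.

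In class III, osteoglycin (mimecan), a keratan sulfate proteoglycan also known from bone and cornea, did not pass. Ogn measured 1751, 998 and 930.2 CPM in Mkx-CreER/flox, 1159, 1160 and 1031 CPM in Mkx-CreER/+ and 743, 1013, 1042 and 779 CPM in Mkx flox/+ (log2 fold change 0.30, SE 0.221, edgeR adjusted p = 0.492). Library 1 alone was above the controls, and without it the change was -0.071 (adjusted p = 0.918). Epiphycan, a proteoglycan of growth cartilage, had 0, 2 and 6 counts of Epyc in Mkx-CreER/flox, 8, 4 and 9 counts in Mkx-CreER/+ and 6, 3, 9 and 1 counts in Mkx flox/+. These counts lie around the limit of 3, and no difference could be read at this depth.

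Library Mkx-CreER/flox 1 held the highest value of all 10 libraries for Aspn, Omd, Ogn and Lum and the lowest for Kera. Leaving muscle, mitochondrial and erythroid genes out of the table gave -2.03 for Kera, -1.51 for Fmod and 1.102 for Aspn, all still called (edgeR adjusted p of 0.00513, 0.0151 and 0.0251). That setting takes those genes out of the scaling and the fit. It leaves any SLRP counts from such cells in place, so it cannot show their part. In the fit with the muscle score added, Kera stood at -2.15 (edgeR adjusted p = 0.00585) and Fmod at -1.63 (adjusted p = 0.0306), in a fit that called 0.755% of all genes. Muscle genes took a mean of 9.23% of counts in Mkx-CreER/flox, 5.89% in Mkx-CreER/+ and 3.46% in Mkx flox/+. Muscle content thus went with genotype in part, and this fit cannot fully separate them.

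Against each control alone, fold changes of the 9 genes had the same signs, and more passed against Mkx flox/+ than against Mkx-CreER/+. Both comparisons use the same 3 Mkx-CreER/flox libraries, so their values are given side by side and are not independent. Against Mkx flox/+, Kera fell by 2.33 (SE 0.283, edgeR adjusted p = 0.00266), Fmod by 1.98 (SE 0.294, adjusted p = 0.00364) and Bgn by 0.90 (SE 0.243, adjusted p = 0.0377), and Aspn rose by 1.396 (SE 0.262, adjusted p = 0.0102). That is 4 of 9 called, 3 lower and 1 higher, where 7.27% of all genes were called, 2.9% lower and 4.37% higher. DESeq2 called 6 of the 9 here (12.1% of all genes) and limma voom 6 (17.8%), with Dcn and Prelp besides these 4. The Bgn call held in 8 of 19 other settings, and the Aspn call ended in the fit with a muscle covariate. Dcn stood at -0.98 (SE 0.309, adjusted p = 0.07), Prelp at -0.72, Lum at -0.084, Omd at 0.66 and Ogn at 0.46 in the same comparison, and Prelp passed without Mkx-CreER/flox 5 (-1.0, adjusted p = 0.0436).

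Against Mkx-CreER/+ alone, 0 of the 9 passed, in a comparison that called 0.00624% of all genes (1 gene, Mkx). Kera had the second smallest p of the 16017 genes, after Mkx, with a log2 fold change of -1.698 (SE 0.286, unadjusted p = 3.06e-05, edgeR adjusted p = 0.178). Fmod stood at -1.01 (SE 0.297) and Aspn at 0.84 (SE 0.282), both at an adjusted p of 0.329, and Aspn stood at 0.33 without library Mkx-CreER/flox 1. These 3 of the 9 had an unadjusted p under 0.05. Dcn (-0.66), Prelp (-0.49), Bgn (-0.25), Lum (-0.11), Ogn (0.14) and Omd (0.47) were smaller. DESeq2 called Kera and Fmod here, among 1.03% of all genes, and limma voom called Kera, Fmod and Dcn, among 4.58%.

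**Figure D2:**
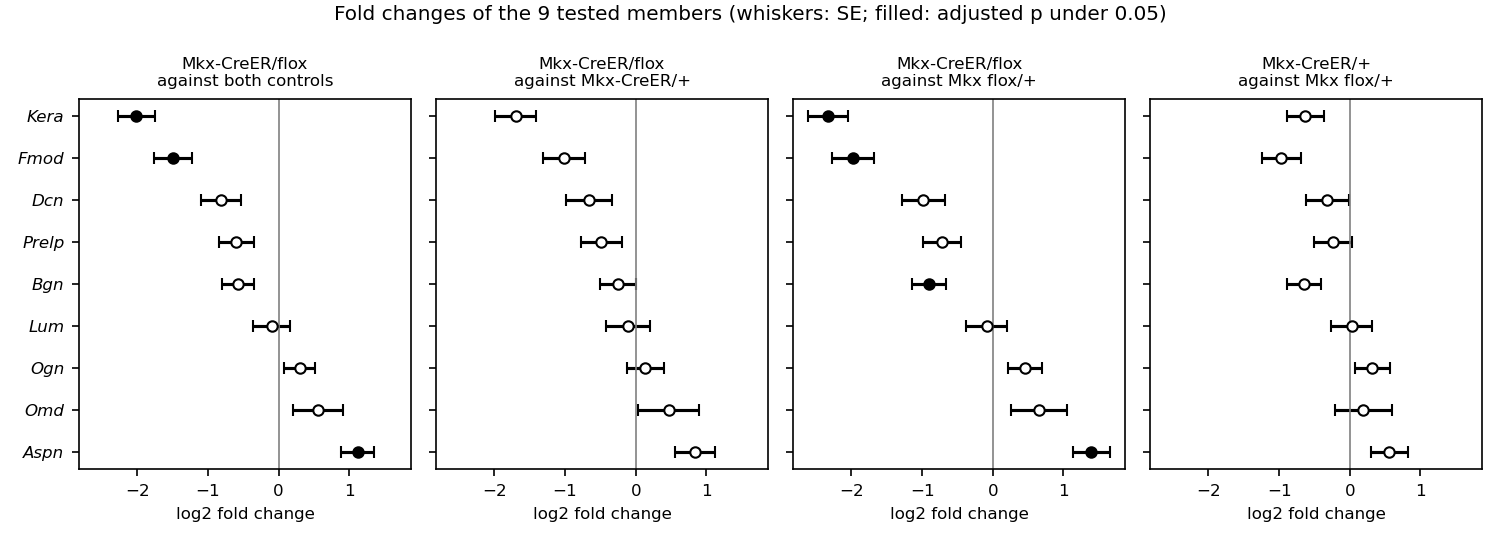
Log2 fold changes (horizontal axis) of the 9 tested SLRP genes (rows) in the 4 comparisons (panels); whiskers are standard errors and filled points have an adjusted p under 0.05. Kera, Fmod and Aspn are filled against both controls and against Mkx flox/+, Bgn only against Mkx flox/+, and no point is filled in the other 2 panels.

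The control genotypes were also set against each other. Mkx-CreER/+ did not differ from Mkx flox/+ in any SLRP at an adjusted p under 0.05, and edgeR called 0% of all genes there (798 genes had an unadjusted p under 0.05, DESeq2 called 37 genes and limma voom 0). Unadjusted p-values under 0.05 were seen for 4 of the 9: Fmod (log2 fold change -0.97, SE 0.282, edgeR adjusted p = 0.69), Bgn (-0.65, adjusted p = 0.84), Kera (-0.63, adjusted p = 0.927) and Aspn (0.56, adjusted p = 0.993). DESeq2 called Fmod (-0.96, adjusted p = 0.0319), among 0.261% of all genes. Mkx itself stood at -0.78 (SE 0.176, edgeR adjusted p = 0.489), and DESeq2 called it as well (-0.77, adjusted p = 0.0289). Dcn (-0.32), Prelp (-0.23), Lum (0.027), Omd (0.19) and Ogn (0.32) had larger unadjusted p-values.

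Read library by library without a test, 3 of the 9 genes separated Mkx-CreER/flox from all 7 controls: Aspn from above, Kera and Fmod from below. Over all genes 6.92% did so, 3.81% from above and 3.12% from below. Fmod and Aspn also kept the 3 genotypes apart with Mkx-CreER/+ in the middle, a pattern seen in 0.818% of genes, in 0.493% with Mkx-CreER/flox lowest, as for Fmod, and in 0.325% with it highest, as for Aspn. Kera did not, since Mkx-CreER/+ 2 (393 CPM) exceeded Mkx flox/+ 2 (337 CPM).

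Ratios of members within a library do not depend on library scaling, and 4 were compared. The pairs were chosen with earlier results of these data known, and adjusting over the 4 ratios does not account for that. As given above, Kera, Fmod and Aspn each separated Mkx-CreER/flox from all 7 controls, so small p-values of their ratios add no separate support. The test pools the libraries of both control genotypes. Per Lum count, Kera gave 0.178, 0.453 and 0.544 counts in Mkx-CreER/flox, 0.879, 1.31 and 0.988 in Mkx-CreER/+ and 1.27, 1.64, 1.47 and 2.44 in Mkx flox/+. The log2 ratio was lower by 1.95 in Mkx-CreER/flox than in the 7 controls, with no overlap (two-sided exact permutation p = 0.00833, the smallest that the 120 splits allow, and 0.0167 adjusted over the 4 ratios). Per Dcn count, Aspn gave 0.0343, 0.0337 and 0.0268 counts in Mkx-CreER/flox, 0.0113, 0.00901 and 0.0148 in Mkx-CreER/+ and 0.0063, 0.00542, 0.00628 and 0.00668 in Mkx flox/+. The 3 genotypes did not overlap, and Mkx-CreER/flox exceeded the controls by 1.97 on the log2 scale (exact permutation p = 0.00833, adjusted 0.0167). Here library Mkx-CreER/flox 1 sat with the other 2, and the difference was 1.87 to 2.11 with any library left out. The ratio takes in changes of Dcn as well as of Aspn. Without Mkx-CreER/flox 1, Aspn stood at 0.61 and Dcn at -1.23 against both controls, so the ratio does not show a steady rise of Aspn itself.

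Per Lum count, Fmod gave 6.73, 7.51 and 13.8 counts in Mkx-CreER/flox, 12.02, 22.03 and 17.3 in Mkx-CreER/+ and 25.4, 56.3, 21.9 and 42.2 in Mkx flox/+, lower by 1.49 on the log2 scale than in the controls (exact permutation p = 0.025, adjusted 0.0333). Mkx-CreER/flox 5 overlapped Mkx-CreER/+ 1, and without Mkx-CreER/flox 1 or without Mkx-CreER/flox 4 the differences were -1.29 and -1.37, both at an exact permutation p of 0.0833, where the smallest p that 2 against 7 libraries allow is 0.0278. Per Dcn count, Bgn gave 0.229, 0.338 and 0.47 counts in Mkx-CreER/flox, 0.229, 0.246 and 0.253 in Mkx-CreER/+ and 0.317, 0.352, 0.242 and 0.321 in Mkx flox/+, which overlapped (difference 0.26, exact permutation p = 0.292, adjusted 0.292). With any library left out, it was 0.010 to 0.53, at an exact permutation p of 0.0556 to 0.972.

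**Figure D3:**
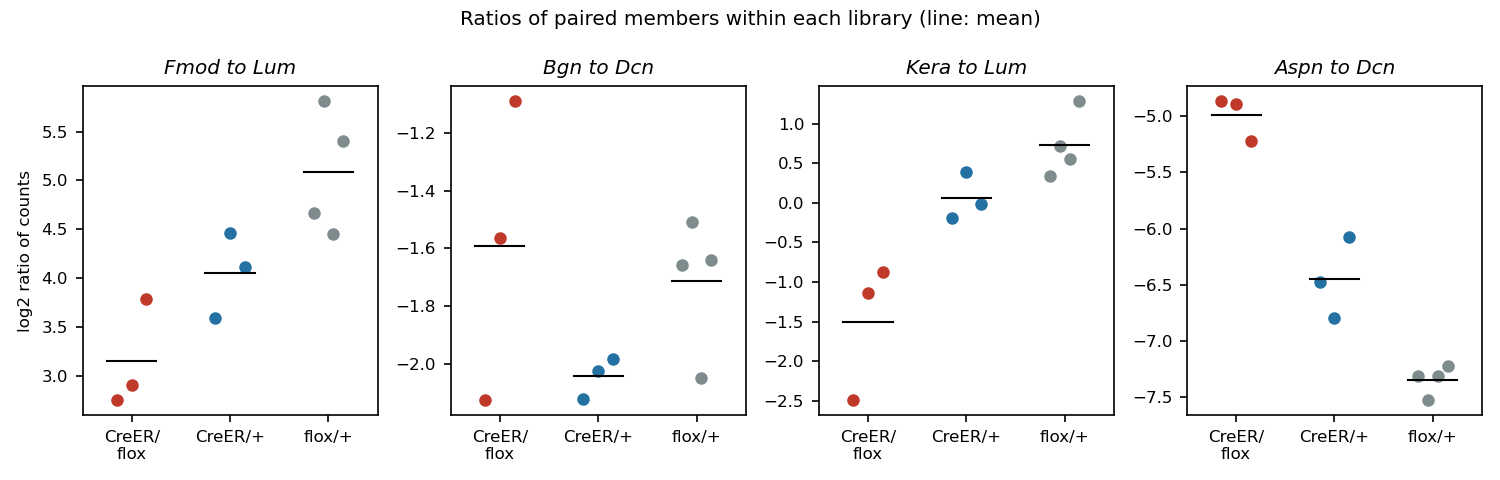
Log2 ratio of counts (vertical axis) of 4 pairs of SLRP genes within each library, by genotype (horizontal axis), with a line at each mean. Kera to Lum is lower and Aspn to Dcn higher in all 3 Mkx-CreER/flox libraries than in all 7 controls, whereas Bgn to Dcn overlaps.

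The family as a whole took 2.02%, 1.415% and 1.86% of all counts in Mkx-CreER/flox, 3.11%, 3.02% and 2.29% in Mkx-CreER/+ and 3.64%, 3.86%, 4.07% and 3.33% in Mkx flox/+. The 3 genotypes did not overlap, with Mkx-CreER/flox lowest. Muscle and mitochondrial transcripts took larger shares of the same totals there, and their part in this figure was not tested. Within the family, Dcn gave 50.4% ± 6.79 of SLRP counts in Mkx-CreER/flox, 54.0% ± 2.52 in Mkx-CreER/+ and 48.1% ± 4.28 in Mkx flox/+ (SD, n = 3, 3 and 4). Fmod took 14.6% ± 3.596 in Mkx-CreER/flox, 19.4% ± 2.35 in Mkx-CreER/+ and 27.3% ± 4.08 in Mkx flox/+. The order was the opposite for Ogn, at 6.76% ± 1.26 in Mkx-CreER/flox, 4.17% ± 0.488 in Mkx-CreER/+ and 2.35% ± 0.301 in Mkx flox/+. These shares sum to 100%, and the family's total was lower in Mkx-CreER/flox, while the CPM of Ogn itself did not pass (means of 1227 CPM in Mkx-CreER/flox, 1116 CPM in Mkx-CreER/+ and 894 CPM in Mkx flox/+). Aspn shares had the same order as those of Ogn, at 1.61% ± 0.407 in Mkx-CreER/flox, 0.632% ± 0.158 in Mkx-CreER/+ and 0.298% ± 0.0414 in Mkx flox/+. Summed by class, class II held 2924 to 5211 CPM in Mkx-CreER/flox, 6127 to 9267 CPM in Mkx-CreER/+ and 12160 to 14240 CPM in Mkx flox/+, mostly Fmod, whereas class III, at 930.6 to 1751 CPM in Mkx-CreER/flox, 1031 to 1160 CPM in Mkx-CreER/+ and 743 to 1042 CPM in Mkx flox/+, overlapped.

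**Figure D4:**
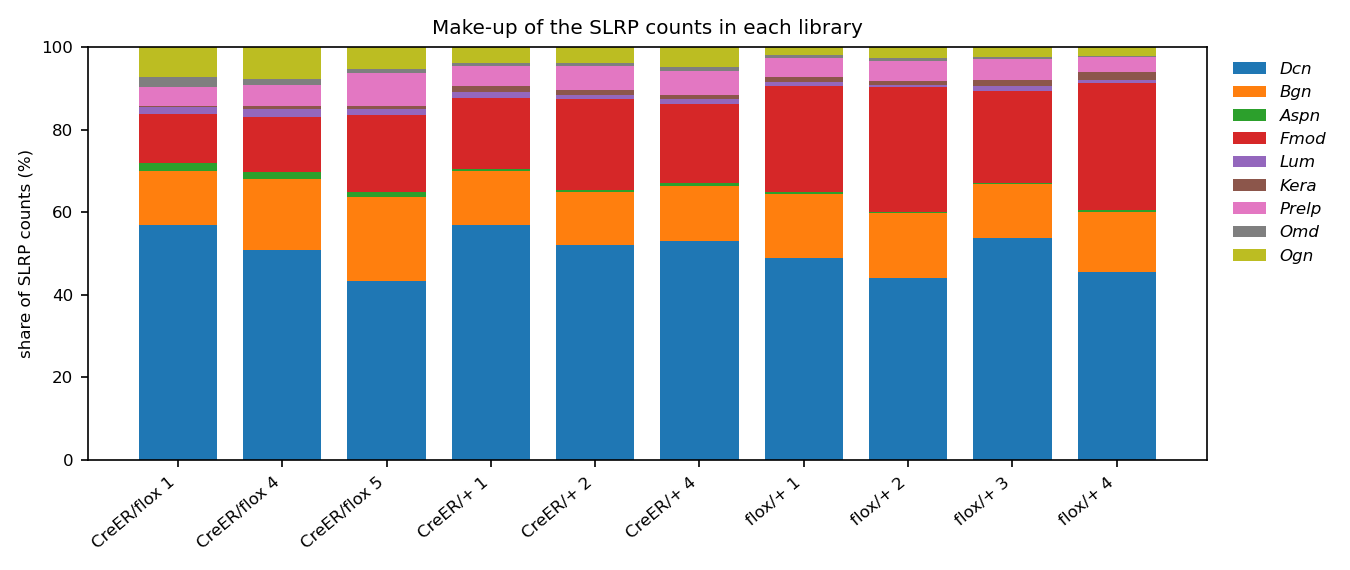
Share of SLRP counts (vertical axis, percent, summing to 100) taken by each gene in each of the 10 libraries (horizontal axis); Epyc, close to 0 in each library, is not drawn. The Fmod block is 11.9% to 18.7% in Mkx-CreER/flox, against 22.3% to 30.9% in Mkx flox/+. The Ogn share is larger in Mkx-CreER/flox, where its CPM did not pass the test.

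Along the chromosomes, neighbours had fold changes of the same sign and unequal size. On chromosome 10, Dcn, Lum and Kera stood at -0.82, -0.097 and -2.01 against both controls, and Lum, which lies between the others, stood at -0.46 without library Mkx-CreER/flox 1. On chromosome 13, Aspn, Omd and Ogn stood at 1.12, 0.56 and 0.30, but without library Mkx-CreER/flox 1 they stood at 0.61, -0.25 and -0.071. Prelp and Fmod on chromosome 1 stood at -0.60 and -1.495. With 8 tested genes in 3 clusters, no test of position was made.

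**Figure D5:**
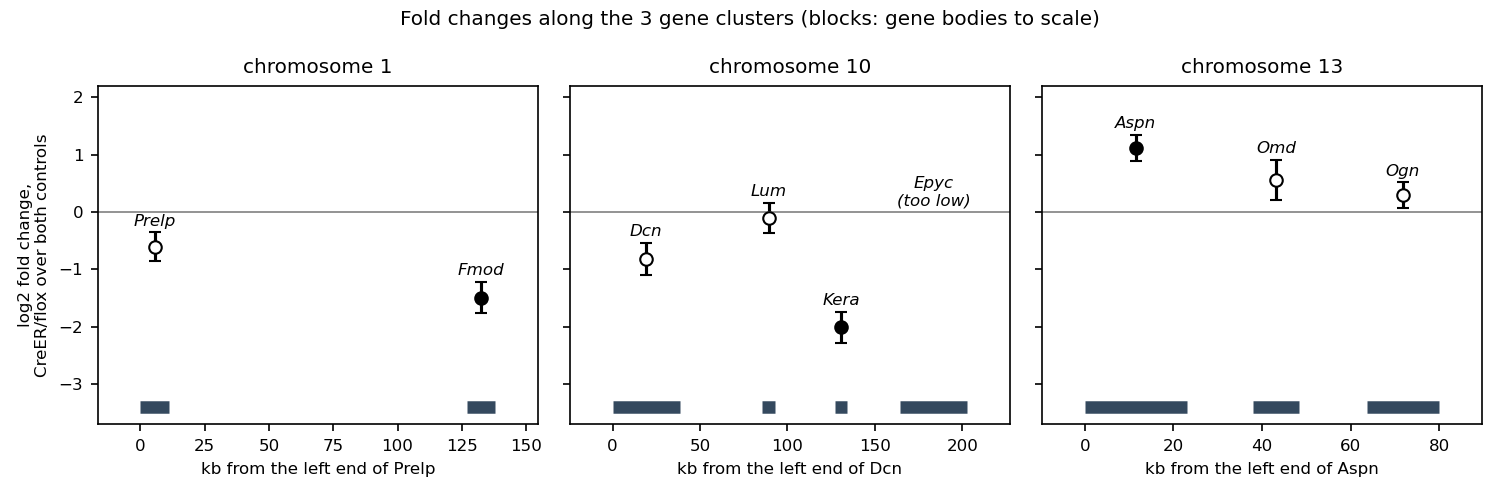
Log2 fold change of Mkx-CreER/flox over both controls (vertical axis; whiskers SE, filled points adjusted p under 0.05) against distance in kb along the 3 gene clusters (horizontal axis), with gene bodies drawn to scale as blocks. Kera and Fmod are the filled points below 0 and Aspn the filled point above 0, each beside neighbours that did not pass.

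Genes that act with SLRPs changed in few cases against both controls, beside a background of 4.65%. Of 26 tested genes for chondroitin and dermatan sulfate synthesis, 1 fell: Chst14, the sulfotransferase of dermatan sulfate, was at 0.454 times the control level (SE 0.262 on the log2 scale, edgeR adjusted p = 0.0292). Of 12 genes for keratan sulfate synthesis and tyrosine sulfation, 0 rose and 0 fell (median log2 fold change -0.32). Of 12 collagens, Col1a1 and Col1a2, the type I chains, fell to 0.299 of the control level (SE 0.357, adjusted p = 0.0224) and to 0.36 of it (SE 0.331, adjusted p = 0.0282). Mean Col1a1 was 4086 CPM in Mkx-CreER/flox, 7676 CPM in Mkx-CreER/+ and 24280 CPM in Mkx flox/+. Col1a2 means were 9953, 17630 and 43410 CPM in the same order. Between the controls, the log2 fold change was -1.66 for Col1a1 and -1.3 for Col1a2, neither called (edgeR adjusted p of 0.489 and 0.624). Mkx-CreER/flox differed less from Mkx-CreER/+ alone, by -0.91 for Col1a1 and -0.82 for Col1a2 (edgeR adjusted p of 0.42 and 0.437). Of 11 tested proteases that cut SLRPs, Htra1, a secreted serine protease, fell to 0.438 (SE 0.225, adjusted p = 0.0186). Of 16 receptors and growth factors, the VEGF receptor Kdr rose to 1.65 times (SE 0.158, adjusted p = 0.0268) and Tlr2, a receptor for soluble biglycan, fell to 0.597 (SE 0.164, adjusted p = 0.0268). Kdr is also among the endothelial markers given below, and the part of cell make-up in these changes was not tested. Of 7 other leucine-rich repeat matrix genes, 0 rose and 0 fell. Each of these calls ended in some settings, with 12 to 16 of 19 kept for Chst14, Col1a1, Col1a2, Htra1 and Tlr2 and 11 for Kdr.

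Against Mkx flox/+ alone, 6 of the 12 collagens fell, where 2.9% of all genes did, as did 4 of the 26 chondroitin and dermatan sulfate genes (Chst14, Chst12, Chpf and Dse) and 3 of the 11 proteases (Htra1, Mmp2 and Mmp14). Against Mkx-CreER/+ alone 0 genes of these lists passed.

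Markers of other cells moved with the genotype in the comparison with both controls, where 3.03% of all genes were higher and 1.62% lower. The part of these cells in the SLRP values was not tested, and the muscle fits cannot fully separate muscle content from genotype. Of 12 macrophage markers 10 fell in that comparison, with summed levels of 799 to 913 CPM in Mkx-CreER/flox, 1146 to 2756 CPM in Mkx-CreER/+ and 1699 to 2744 CPM in Mkx flox/+. Of 20 muscle markers 4 rose in it, with sums of 70630 to 140400 CPM in Mkx-CreER/flox, 29920 to 82630 CPM in Mkx-CreER/+ and 16750 to 56480 CPM in Mkx flox/+. Of 10 mural and smooth muscle markers 3 rose (Rgs5, Abcc9 and Des), with sums of 2059 to 2350 CPM in Mkx-CreER/flox, 1206 to 1259 CPM in Mkx-CreER/+ and 940.2 to 1347 CPM in Mkx flox/+, and Mkx-CreER/flox did not overlap the controls. Of 10 Schwann cell markers 1 rose (Cdh19), and all 10 had positive fold changes (median log2 fold change 2.57), with sums of 491 to 2352 CPM in Mkx-CreER/flox, 441 to 1016 CPM in Mkx-CreER/+ and 480.3 to 867.5 CPM in Mkx flox/+. Endothelial markers (1 of 10 higher, Kdr) all had positive fold changes (median log2 fold change 0.40). They summed to 607 to 797 CPM in Mkx-CreER/flox, 512 to 629 CPM in Mkx-CreER/+ and 413 to 583 CPM in Mkx flox/+. Of 9 tested mitochondrially encoded genes 6 rose, with sums of 37160 to 105600 CPM in Mkx-CreER/flox, 23300 to 45530 CPM in Mkx-CreER/+ and 18900 to 23320 CPM in Mkx flox/+. Cartilage and bone also make SLRPs, and the sums of their markers overlapped. The cartilage list includes Comp, which is also among the tendon cell markers, so its sum is no measure of cartilage alone. Cartilage markers (1 of 8 lower) summed to 1831 to 4756 CPM in Mkx-CreER/flox, 2871 to 4128 CPM in Mkx-CreER/+ and 2383 to 4443 CPM in Mkx flox/+. Bone markers (0 of 5 called) summed to 250.5 to 645 CPM in Mkx-CreER/flox, 203 to 748 CPM in Mkx-CreER/+ and 139 to 327.5 CPM in Mkx flox/+. All 5 tested bone markers had positive fold changes (median log2 fold change 0.42). Among tendon cell markers, Mkx, Wif1, Col1a1, Col1a2 and Tnc fell and Chodl rose (5 of 12 lower, 1 higher). Paratenon and sheath markers (1 of 10 lower) summed to 4437 to 7370 CPM in Mkx-CreER/flox, 6066 to 13750 CPM in Mkx-CreER/+ and 8882 to 17320 CPM in Mkx flox/+. Among the genes of these lists, mt-Atp8 was at 0 in all 10 libraries and no other was.

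Among 9935 genes of moderate or high level, those whose log2 CPM followed the 3 changed members most closely over the 10 libraries were picked by Pearson's r, as a description, since the libraries share genotype and depth. Genes picked this way tend to move as the member does, so their calls add no separate support. For Kera they were Tapbp (r = 0.978), Sulf1 (0.972), a heparan sulfate endosulfatase, and Tysnd1 (0.968), none of which passed against both controls. For Fmod they were Ccdc3 (0.981), Mxra8 (0.978) and Pla2g5 (0.976), a secreted phospholipase, and all 3 fell: Ccdc3 by 0.78, Mxra8 by 0.69 and Pla2g5 by 1.43 (edgeR adjusted p of 0.0352, 0.0333 and 0.00372). The Pla2g5 call held in 19 of 19 other settings, those of Ccdc3 and Mxra8 in 9 each. For Aspn they were Fbxo3 (0.977), Acyp2 (0.974) and Sypl (0.97), of which Acyp2 and Sypl rose by 1.15 and 0.76 (edgeR adjusted p of 0.0308 and 0.0452). These calls held in 10 (Acyp2) and 7 (Sypl) of 19 other settings, and without library Mkx-CreER/flox 1 the changes were 0.53 (adjusted p = 0.208) for Acyp2 and 0.31 (adjusted p = 0.302) for Sypl.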

How the data were processed

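The authors deposited 1 table of unnormalized counts per Ensembl gene for 10 Achilles tendon libraries. Per the submitters' processing notes, fastp and STAR were used with mm10; versions, counter, annotation and strand setting are not stated there. Columns of Mkx flox/+ were assigned by number, the others by genotype only. Symbols came from GENCODE vM21 (32158 of 32285 identifiers; 127 had none).

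Counts were filtered by filterByExpr, scaled by TMM and fitted in 1 quasi-likelihood model over all libraries (R 4.3.3, edgeR 4.0.16, robust, adjusted p under 0.05), which was tested on simulated data. Libraries of the same genotype differed pairwise by 23.6 to 119 times counting error (chi-square per degree of freedom). Levels per kb divide CPM by exon length. Ratios were compared by exact permutation of libraries (Python 3.11.15, SciPy 1.17.1). Alternatives were DESeq2 1.42.0, limma 3.58.1 voom, other scalings and filters, a muscle covariate, a replicate block and each library left out. The muscle covariate without library Mkx-CreER/flox 1 was added after the data were seen. The members, gene lists and tests were chosen with earlier results of these data known.

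All 10 members, Mkx, Col1a1 and Col1a2 are named in each case; related lists are named by up to 4 called genes of smallest p in each direction, and like genes by the 3 highest correlations.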

Additional observations from a re-analysis of the deposited data

How the results depend on the processing

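Against both controls, Kera kept its call in all 19 other settings tried and Fmod in 17, Aspn in 14, Bgn passed in 2, Dcn in 3 and Prelp in 1. DESeq2 called 1459, 126, 1866 and 37 genes (against both controls, Mkx-CreER/+, Mkx flox/+, and between the controls), limma voom 3004, 734 and 2854 in the 3 comparisons of Mkx-CreER/flox, and the fit without a filter 9 against Mkx-CreER/+. Of the SLRPs, DESeq2 called 5 against both controls, 2 against Mkx-CreER/+ and 1 between the controls, limma voom 6 against both controls and 3 against Mkx-CreER/+, and the unfiltered fit 1 (Kera) against Mkx-CreER/+. The muscle covariate left 121 genes against both controls, and 253 genes with 2 SLRPs against Mkx flox/+; without library Mkx-CreER/flox 1 it left 227 against both. With only the groups compared, 0 genes were called against Mkx-CreER/+. The library numbers gave no sign of pairing, though this does not settle it. Deviations of same-numbered libraries correlated at -0.062 to 0.138, those of differently numbered ones at -0.188 to 0.215. A replicate block on the numbers, which leaves few degrees of freedom, called 119, 0, 537 and 1 genes in the 4 comparisons. It ended the Fmod call (-1.62, edgeR adjusted p = 0.0523).

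With each library left out in turn, 64 to 1114, 0 to 117, 455 to 1585 and 0 to 0 genes were called, and 2 to 3, 0 to 1 (Kera, without Mkx-CreER/+ 4), 3 to 5 and 0 to 0 SLRPs. Signs turned only in Omd, Ogn and Lum, none of them called. In limma voom Omd stood at -0.0084 against both controls and -0.17 against Mkx-CreER/+, and Ogn at -0.15 against Mkx-CreER/+. Lum stood at -0.035 between the controls with the muscle covariate and at 0.083 against Mkx flox/+ with the block. Omd stood at -0.12 and Ogn at -0.089 against both with the muscle covariate and no Mkx-CreER/flox 1. Leaving libraries out gave Lum -0.46 to 0.053 against both, -0.48 to 0.12 against Mkx-CreER/+, -0.45 to 0.085 against Mkx flox/+ and -0.22 to 0.197 between the controls. It gave Omd -0.25 to 0.86, -0.35 to 0.76, -0.15 to 0.96 and -0.0073 to 0.33 in the same order, and Ogn -0.071 to 0.45 against both and -0.23 to 0.29 against Mkx-CreER/+. The cause was not tested. Depth limits only Epyc among the members.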
